A study of Danio rerio with 8 samples.

Results

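Zebrafish embryos injected with a morpholino against tbx5a and a miR-19a mimic (MO-Tbx5a+miR-19a) were compared at 24 hours post fertilisation (hpf) with control embryos (MO-Ct), to describe the transcripts, tissues and pathways that still differed when both oligonucleotides were present. The comparison used 5 of the 8 arrays of the series, chosen by group title, namely 3 MO-Tbx5a+miR-19a arrays and 2 MO-Ct arrays, and all 39162 probes with a deposited value. The 3 arrays of embryos that received the same morpholino without the mimic (MO-Tbx5a) were in the same fit and are given beside the results. Every array held labelled RNA from a pool of 50 whole AB embryos, and nothing in the sources used here says whether the pools of a group came from separate clutches or injections, so the p-values measure the spread between these pools only.

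MO-Tbx5a+miR-19a embryos received, at the 1-cell stage, 1.5 ng of a morpholino that blocks translation of tbx5a and, in the same injection, miR-19a mimic (0.25 ng). MO-Tbx5a embryos received the same morpholino with 0.25 ng of a control mimic, and MO-Ct embryos received 1.5 ng of control morpholino with 0.25 ng of control mimic. All groups were thus injected with a morpholino and a mimic, and no uninjected embryos were compared. A morpholino is an antisense oligonucleotide that lowers a protein transiently and is diluted as the embryo grows, and a mimic is a synthetic duplex that acts as a mature microRNA wherever the injected material reaches. For the group with the mimic, the treatment label names MO-19a, a morpholino, in place of the mimic given in titles and design. The reading from titles and design was taken, and each value below rests on it.

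Labelling followed the groups. RNA of MO-Tbx5a+miR-19a embryos (0.5 ug) was labelled with a Low RNA Input Linear Amplification PLUS kit, and RNA of MO-Tbx5a and MO-Ct embryos (200 ng) with the LowInput QuickAmp kit, while the methods name a single kit. The submitters' notes also give Feature Extraction 9.1 for MO-Tbx5a+miR-19a and 10.7 for MO-Ct, whereas the headers of the MO-Tbx5a+miR-19a scans name the later version. Treatment, kit and amount of RNA therefore cannot be told apart wherever MO-Tbx5a+miR-19a differed from MO-Ct. Nor can software version be told apart from them if the submitters' notes hold and the scan headers do not. Likewise, mimic, kit and amount of RNA cannot be told apart wherever MO-Tbx5a+miR-19a differed from MO-Tbx5a. In addition, the scanner files of the 3 MO-Tbx5a+miR-19a samples did not follow their own columns of the deposited matrix. Spearman's rho across probes was 0.934 to 0.937 between a scan and its own column, against 0.992 to 0.996 between columns of one group, and 0.933 to 0.95 between these scans and the MO-Ct columns. The scan values are processed signals and the columns are normalised median signals, so that rho between them compares unlike measures. Deviations from the group mean, taken within each measure, correlated at -0.09 to 0.25 between a scan and its own column. The scans were used only to name probes and for their flags, and all levels below are the deposited log2 values, whose medians lay between 7.77 and 7.8 on the 8 arrays.

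Tbx5 is a T-box transcription factor needed for the heart and the pectoral fin, and its loss in zebrafish gives a stretched, string-like heart and missing fins. A microRNA such as miR-19a pairs through its seed with sites in target transcripts and lowers their stability and translation, and miR-19a is part of a conserved cluster that acts in the growth of heart and blood. At 24 hpf the embryo has a beating heart tube, contracting somites, a vacuolating notochord, a developing nervous system and a lens whose fibre cells have begun to fill with crystallins. No probe with a gene symbol matched tbx5a, but 14446 of the 39162 probes had no symbol. The heart and the fin bud are a small share of the RNA of a whole embryo. In a whole-embryo sample fewer cells of a type and less RNA per cell cannot be told apart.

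MO-Tbx5a+miR-19a and MO-Ct embryos differed at 11.2% of probes. In MO-Tbx5a+miR-19a 2052 probes (5.24% of all) were higher, and 2332 (5.95%) were lower. Calls required a fold change above 1.3 with p and Benjamini-Hochberg adjusted p under 0.05 in limma. Most called changes were small. Their median size was 0.62 on the log2 scale, and 513 exceeded 1, where the median standard error of a change over all probes was 0.14. The median change over all probes was -0.03, and 53.6% of probes had a change below 0. Beside these calls, the 3 and 2 arrays did not overlap at 43.6% of probes. MO-Tbx5a against MO-Ct, which uses the same MO-Ct arrays, gave 38.4% of probes called (18.7% higher and 19.6% lower). MO-Tbx5a+miR-19a against MO-Tbx5a, which differed in labelling too, gave 42.2% of probes called.

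Probes of one gene were not always called together. Genes were therefore described from agreeing probes, meaning at least 2 probes called in one direction and 0 in the other. Of 7505 gene symbols with 2 or more probes, 343 (4.57%) met this, 162 of them higher (2.16%) and 181 lower (2.41%), and 28 other symbols had probes called in opposite directions. A further 1815 symbols had exactly 1 called probe, although 1201 of these carried other probes too. When the values were normalised again by cyclic loess over the 8 arrays, the split of agreeing genes was 193 higher and 140 lower. The median change over the 343 agreeing genes was 0.61 in size, and it was above 1 for 15 higher and 20 lower genes. On every called probe of these 343 genes the 3 and 2 arrays did not overlap. Non-overlap of a named gene is therefore part of its selection and no further support. The count rested on the 2 MO-Ct arrays, since 83 of the 343 genes kept agreeing probes without MO-Ct replicate 1 and 65 without MO-Ct replicate 2, against 156, 249 and 187 without MO-Tbx5a+miR-19a replicates 1, 2 and 3. In all 5 of these fits 39 genes were kept, 27 higher and 12 lower. Such genes are named below as kept in every fit, and for the other named genes the arrays are given without which the agreement was lost.

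Most gene lists had a median change near 0. Of 65 lists of tissue markers, pathways and cell machinery, 47 had a median change within 0.1 of 0, and 24 had a larger share of lower probes than the 5.95% over all probes. Larger medians were more common among tissue lists than among the other lists. A median near 0 does not exclude single changes in both directions. Lists with more than 15% of probes called lower were 3 lists of lens genes and the lists of neuronal and of xanthophore and iridophore genes. Lists with more than 15% called higher were notochord, steroid synthesis, collagen and epidermal genes, and a germ cell and maternal list with a median of 0.00. The lists carry no test and are described by counts and medians.

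**Figure D1:**
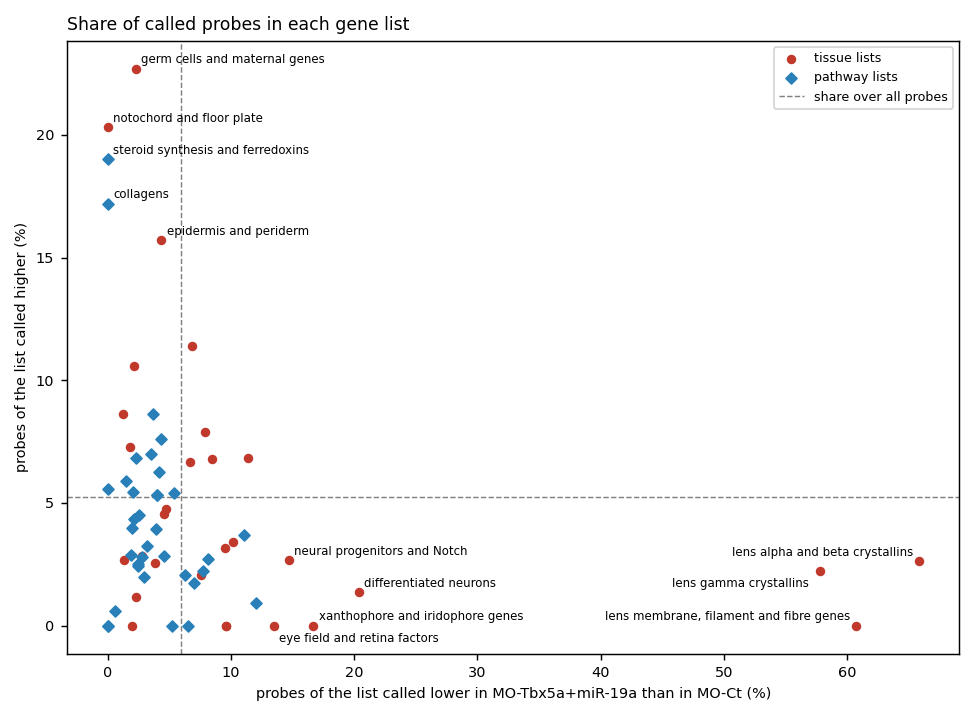
Each point is 1 of 65 gene lists. The x axis gives the percentage of its probes called lower and the y axis the percentage called higher in MO-Tbx5a+miR-19a than in MO-Ct embryos, and dashed lines mark the shares over all probes (5.95% lower, 5.24% higher). The 3 lens lists lie between 57.8% and 65.8% lower, to the right of all other lists.

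The 3 lens lists had the largest shares of called probes among the 65 lists. Lens fibre cells pack alpha, beta and gamma crystallins to high concentration, lose their nuclei and build their membranes from aquaporin-0, lens connexins and a cytoskeleton of beaded filaments. Of 111 probes to 65 genes of the 3 lens lists, 68 (61.3%) were lower and 2 higher in MO-Tbx5a+miR-19a than in MO-Ct embryos, with a median change of -0.93. The share was 57.8% of 45 probes for gamma crystallins, 65.8% of 38 probes for alpha and beta crystallins, and 60.7% of 28 probes for lens membrane and filament genes. When all probes of the array were ranked by brightness into 3 equal classes, lens probes of the brightest class were lower at 40 of 43 (93%), with a median of -1.36. Those of the middle class were lower at 13 of 26, with a median of -0.86, and those of the dimmest class at 15 of 42, with a median of -0.24. Over all probes of the array 6.51% of the brightest, 7.70% of the middle and 3.65% of the dimmest class were lower. The counts depended on the variance model and threshold for some lists. With the trend and robust options of eBayes 12 gamma crystallin probes were lower, against 25 alpha and beta crystallin and 15 membrane and filament probes, and when limma tested against the fold threshold itself (treat) 14, 8 and 4 probes of the 3 lists were lower. The count of lower probes over all lens lists was 24 without MO-Ct replicate 2, and 54 to 74 when any other array was left out.

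The depth of the lens deficit varied between the MO-Tbx5a+miR-19a pools. Relative to the MO-Ct mean, the mean over gamma crystallin probes was -1.46, -1.10 and -0.55 in the 3 MO-Tbx5a+miR-19a pools, and -0.12 and 0.12 in the MO-Ct pools. The alpha and beta crystallins stood at -1.0, -0.84 and -0.44 in the same pools, and the membrane and filament genes at -0.96, -0.72 and -0.45. All 3 lists had the same order, with replicate 1 lowest and replicate 3 nearest to control, and no MO-Tbx5a+miR-19a pool reached the MO-Ct pools. MO-Tbx5a pools lay at -0.93, -0.84 and -1.0 for the gamma crystallins. They lay at -0.81, -0.76 and -0.75 for the alpha and beta crystallins, and at -0.54, -0.48 and -0.47 for the membrane and filament genes. By these list means the MO-Tbx5a pools were thus within the range of the MO-Tbx5a+miR-19a pools in all 3 lists. Single probes did differ between the 2 groups. Of the 111 lens probes 29 were lower and 16 higher in MO-Tbx5a+miR-19a than in MO-Tbx5a, where 42.2% of all probes were called.

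**Figure D2:**
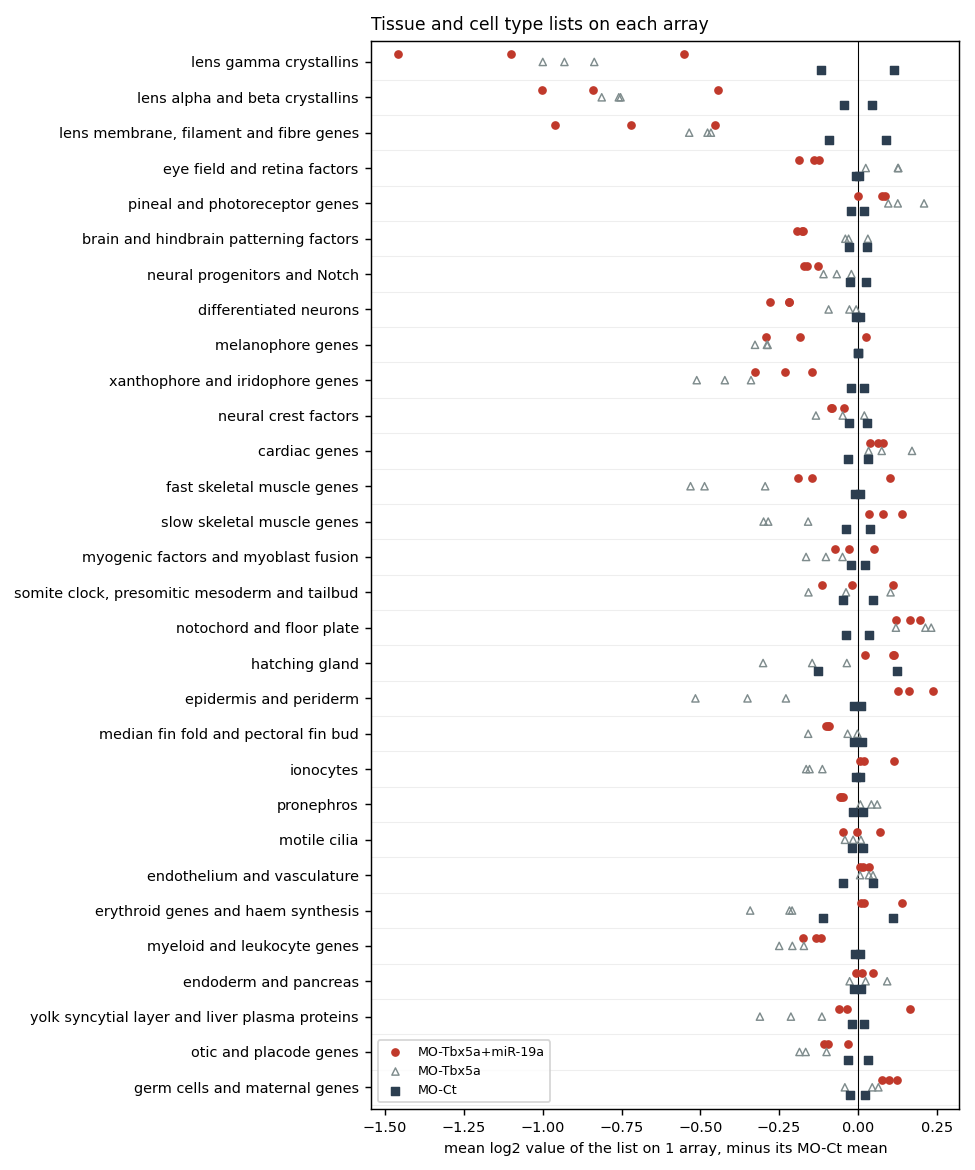
Mean log2 value over the probes of each of 30 tissue lists, relative to the mean of the MO-Ct arrays, with 1 symbol per array (MO-Tbx5a+miR-19a red circles, MO-Tbx5a grey triangles, MO-Ct dark squares). The lens lists lie between -1.46 and -0.44 on the MO-Tbx5a+miR-19a arrays, and the other lists lie nearer to the MO-Ct mean.

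Single lens genes gave larger differences than the list means. The beta crystallin gene cryba1l2 (NM_001005965), kept in every fit, had 8.28, 8.99 and 9.22 in MO-Tbx5a+miR-19a, against 10.49, 10.56 and 10.41 in MO-Tbx5a and 10.41 and 10.77 in MO-Ct. From MO-Ct to MO-Tbx5a+miR-19a cryba1l2 fell by 1.76 on the log2 scale (SE 0.22, limma adjusted p = 0.00072), with its other 2 probes lower too. MO-Tbx5a pools stood beside the MO-Ct pools for this gene (change -0.10), and MO-Tbx5a+miR-19a was lower than MO-Tbx5a by limma (change -1.66). The gamma crystallin gene crygm2d3 (NM_001080061) had 11.57, 12.46 and 13.46 in MO-Tbx5a+miR-19a, against 13.05, 13.16 and 12.38 in MO-Tbx5a and 14.67 and 15.01 in MO-Ct. This was the largest fall by the median over probes (-2.33), with -2.34 (SE 0.40, limma adjusted p = 0.00374) on this probe. The MO-Tbx5a+miR-19a pools were widely spread here, and the call was lost without MO-Ct replicate 2.

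Other beta crystallins were also lower than in MO-Ct, but they differed in MO-Tbx5a. For cryba4 (NM_001018125) MO-Tbx5a+miR-19a pools had 11.72, 11.91 and 12.6, against 11.72, 11.8 and 11.72 in MO-Tbx5a and 13.42 and 13.57 in MO-Ct. It changed by -1.42 (SE 0.20, limma adjusted p = 0.00146), which was lost without MO-Ct replicate 2. The other probe of cryba4 gave -1.36. Over its 2 probes cryba4 had a median change of -2.23 in MO-Tbx5a, and of 0.84 from MO-Tbx5a to MO-Tbx5a+miR-19a. For cryba1l2 these medians were -0.10 and -1.51. crybb1 (NM_173231) fell on 3 of 4 probes, by 1.18, 1.21 and 1.11 on the log2 scale, and was kept in every fit. The alpha crystallin gene cryaa (NM_152950), a small heat shock protein of the lens, was dim, with 4.76, 5.13 and 5.2 in MO-Tbx5a+miR-19a, against 5.48, 5.58 and 5.84 in MO-Tbx5a and 5.97 and 6.12 in MO-Ct. It fell on 3 of 4 probes (change -1.01, SE 0.16, limma adjusted p = 0.0022 for the first) and was kept in every fit, while the last probe was near the floor of the array in both groups. The only called rises in the lens lists were 1 probe each of crygn1 (0.69) and crybb3 (0.74). Gamma crystallin genes share much sequence, so their probes can read more than 1 copy.

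Structural genes of the fibre cell fell with the crystallins. bfsp2 (NM_001008633), the beaded filament protein phakinin, had 6.75, 7.30 and 7.25 in MO-Tbx5a+miR-19a, against 7.98, 8.02 and 7.98 in MO-Tbx5a and 8.13 and 8.42 in MO-Ct. All 4 bfsp2 probes fell, by 0.61 to 1.18 on the log2 scale (SE 0.16, limma adjusted p = 0.0013 for this probe), and the gene was kept in every fit. mipa (NM_001003534), the aquaporin-0 water channel, had 8.59, 9.25 and 9.59 in MO-Tbx5a+miR-19a, against 10.19, 10.36 and 10.07 in MO-Tbx5a and 10.35 and 10.69 in MO-Ct. Its change of -1.38 (SE 0.23, limma adjusted p = 0.00335) held without MO-Tbx5a+miR-19a replicate 3 but the agreement of its 2 probes was lost when any other array was left out. For these genes the MO-Tbx5a pools lay just under MO-Ct or overlapped them. The lens connexin gene gja8b (NM_131809), chosen after its values were seen, showed the same on 3 of 3 probes, with changes of -0.96, -1.04 and -0.95 in MO-Tbx5a+miR-19a, beside 0.09, -0.04 and -0.30 in MO-Tbx5a, and its agreement was lost without MO-Ct replicate 2.

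A lens nuclease and a lens membrane protein were also low. dnase1l1l (NM_001002403), a DNase of the lens that clears the nuclei of fibre cells, had 5.00, 5.14 and 5.36 in MO-Tbx5a+miR-19a, against 5.93, 6.09 and 5.91 in MO-Tbx5a and 6.54 and 6.88 in MO-Ct. The change was -1.54 (SE 0.15, limma adjusted p = 0.000139), and -0.79 on the other probe, with the agreement lost without MO-Ct replicate 2. lim2.4 (NM_001002407) had 8.9, 9.24 and 9.69 in MO-Tbx5a+miR-19a, against 9.28, 9.39 and 9.62 in MO-Tbx5a and 10.31 and 10.49 in MO-Ct (change -1.12, SE 0.19, limma adjusted p = 0.00403, lost without MO-Ct replicate 2). The early lens transcription factor genes foxe3 and pitx3 were not called. foxe3, which keeps the lens epithelium dividing, had a change of -0.31 (limma adjusted p = 0.351), and the 3 probes of pitx3 had changes of 0.00, -0.27 and -0.21.

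Genes that pattern the eye differed less than lens genes. Of 52 probes to 24 eye field and retina genes 7 (13.5%) were lower and 0 higher, with a median of -0.10, and 0 were lower without either MO-Ct array, 2 without MO-Tbx5a+miR-19a replicates 1 or 3, and 4 without replicate 2 or after cyclic loess. lhx2b (NM_001040010), a homeobox factor of the eye field, had 9.19, 9.55 and 9.31 in MO-Tbx5a+miR-19a, against 10, 9.92 and 9.77 in MO-Tbx5a and 10.07 and 9.96 in MO-Ct. It fell on 2 of 3 probes, this one by 0.67 on the log2 scale (SE 0.14, limma adjusted p = 0.00973), and the agreement held only without MO-Tbx5a+miR-19a replicate 1. pax6a (NM_131304), the paired-box factor of eye and forebrain, had 11.54, 11.63 and 11.47 in MO-Tbx5a+miR-19a, against 12.46, 12.27 and 12.09 in MO-Tbx5a and 11.99 and 12.15 in MO-Ct. It fell on 2 of 6 probes, this one by 0.52 on the log2 scale (SE 0.13, limma adjusted p = 0.0271), and the agreement held only without MO-Tbx5a+miR-19a replicate 2. For both genes the MO-Tbx5a+miR-19a pools lay under all the other pools.

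Genes of differentiated neurons leaned lower in MO-Tbx5a+miR-19a. Of 147 probes to 63 such genes, 30 (20.4%) were lower and 2 higher, with a median of -0.23, against 32 higher and 34 lower with a median of -0.01 in MO-Tbx5a. The mean over the list, relative to MO-Ct, was -0.28, -0.22 and -0.22 in the 3 MO-Tbx5a+miR-19a pools, and -0.01 and 0.01 in the MO-Ct pools. These small, even shifts did not overlap between the groups, but such non-overlap was not particular to the neuronal list. The means of the cardiac list did not overlap either, at 0.04, 0.08 and 0.07 in MO-Tbx5a+miR-19a against 0.03 and -0.03 in MO-Ct. As single calls the neuronal shifts were fragile, since 4 or 8 probes were lower when MO-Ct replicate 2 or replicate 1 was left out, and 14 or 18 when MO-Tbx5a+miR-19a replicate 1 or replicate 3 was.

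Neurofilament genes, which build the cytoskeleton of long axons, were part of this list. Over 5 neurofilament genes, grouped after their values were seen, 9 of 10 probes were lower, at a median of -0.64, against 0 lower and 2 higher with a median of 0.05 in MO-Tbx5a. nefmb (NM_001123280), a medium neurofilament chain, had 8.84, 9.29 and 8.82 in MO-Tbx5a+miR-19a, against 10.31, 10.10 and 10.09 in MO-Tbx5a and 10.19 and 9.97 in MO-Ct. This probe of nefmb changed by -1.10 (SE 0.16, limma adjusted p = 0.00148) and its brighter probe by -0.64 (SE 0.14, limma adjusted p = 0.0158), with the agreement lost without MO-Ct replicate 1. nefma (NM_001111214) had 7.86, 8.05 and 7.75 in MO-Tbx5a+miR-19a, against 8.55, 8.12 and 8.34 in MO-Tbx5a and 8.6 and 8.51 in MO-Ct. Its 2 probes changed by -0.67 and -0.68, with the agreement lost without MO-Tbx5a+miR-19a replicate 1 or either MO-Ct array, and the 3 probes of neflb (NM_001039838), the light chain, by -0.68, -0.65 and -0.63, with its agreement lost without the same arrays. The neurofilament count depended on single arrays, with 1 or 2 probes lower when MO-Ct replicate 1 or replicate 2 was left out, and 5 when MO-Tbx5a+miR-19a replicate 1 was.

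Other neuronal genes fell too. eno2 (NM_001003848), the neuronal enolase of glycolysis, had 9.52, 10.03 and 9.1 in MO-Tbx5a+miR-19a, against 10.9, 10.69 and 10.65 in MO-Tbx5a and 10.69 and 10.83 in MO-Ct. The change was -1.21 (SE 0.21, limma adjusted p = 0.00401), and the agreement of its 2 probes held only without MO-Tbx5a+miR-19a replicate 2. stmn1b (NM_001017850), a stathmin that regulates microtubules in neurons, had 12.11, 12.5 and 12.35 in MO-Tbx5a+miR-19a, against 12.78, 12.93 and 12.63 in MO-Tbx5a and 12.98 and 13.08 in MO-Ct (change -0.71, SE 0.14, limma adjusted p = 0.00884), and was lost without MO-Tbx5a+miR-19a replicate 1 or either MO-Ct array. The pan-neuronal RNA-binding gene elavl3 was not called (change -0.44, limma adjusted p = 0.0749), so not every broad neuronal marker passed.

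Notch signalling keeps neural progenitors from differentiating, and its target gene her4.1 fell strongly. Notch ligands of the Delta family on one cell activate receptors on its neighbour, which then expresses her genes that repress neurogenesis. her4.1 (NM_001103128), a direct Notch target, had 12.27, 12.79 and 12.75 in MO-Tbx5a+miR-19a, against 12.61, 12.69 and 12.51 in MO-Tbx5a and 13.62 and 13.77 in MO-Ct. Both groups of morphants lay about 1 unit under control, the change was -1.09 (SE 0.16, limma adjusted p = 0.00149), the other probe gave -1.20 (limma adjusted p = 0.00141), and the gene was kept in every fit. Over 15 her genes, grouped after their values were seen, 5 of 24 probes (20.8%) were lower and 0 higher, with a median of -0.13. The ligand gene dla (NM_130954) had smaller changes of -0.42 and -0.40, and their agreement was lost whichever array was left out. Over the list of progenitor and Notch genes 11 of 75 probes (14.7%) were lower and 2 higher with a median of -0.21. That count was 2 to 5 lower probes when any 1 array was left out, and 7 after cyclic loess. Brain patterning genes had 8 of 83 probes lower (9.64%) and 0 higher, with a median of -0.12, and 2, 3 and 4 were lower without MO-Ct replicate 2, MO-Ct replicate 1 and MO-Tbx5a+miR-19a replicate 1.

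**Figure D3:**
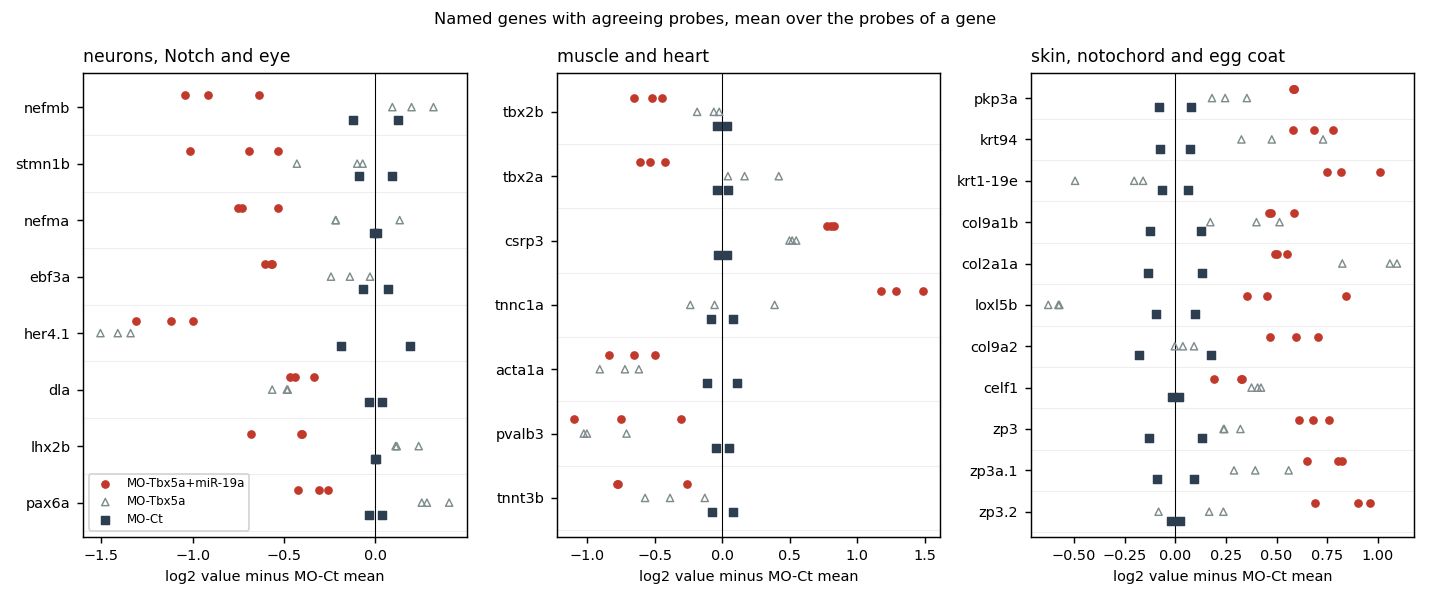
Log2 values of named genes per array (mean over the probes of each gene) in 3 panels for neurons, Notch and eye, for muscle and heart, and for skin, notochord and egg coat. Red circles are MO-Tbx5a+miR-19a, grey triangles MO-Tbx5a and dark squares MO-Ct. Most genes of the first panel lie lower and most of the third higher on the MO-Tbx5a+miR-19a arrays than on the MO-Ct arrays. The genes were chosen for agreeing called probes, so their separation from MO-Ct is part of the selection.

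The list of genes of the heart, which Tbx5 serves, had few called probes and a median near 0. Of 76 probes to 38 cardiac genes, 6 (7.89%) were higher and 6 (7.89%) lower, with a median of 0.01. Over all probes the shares were 5.24% higher and 5.95% lower, so that the list held few calls beyond them. MO-Tbx5a had 18 higher and 10 lower probes of this list, with a median of 0.16. In MO-Tbx5a+miR-19a the higher probes included contractile genes. tnnc1a (NM_181498), the cardiac troponin C that binds calcium in the thin filament, had 10.19, 10.21 and 10.59 in MO-Tbx5a+miR-19a, against 7.95, 7.86 and 8.92 in MO-Tbx5a and 8.27 and 8.15 in MO-Ct. This probe rose by 2.12 on the log2 scale (SE 0.26, limma adjusted p = 0.000588). Its second probe had 8.23, 7.99 and 8.23 in MO-Tbx5a+miR-19a, against 7.78, 7.51 and 7.7 in MO-Tbx5a and 7.74 and 7.53 in MO-Ct, and tnnc1a rose there by 0.52 (SE 0.14, limma adjusted p = 0.03). The 2 probes disagreed in size, and the agreement was lost without MO-Tbx5a+miR-19a replicates 1 or 3 or without either MO-Ct array.

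Other contractile genes differed less. csrp3 (NM_001006026), a LIM protein of the muscle Z-disc, had 6.2, 6.27 and 6.28 in MO-Tbx5a+miR-19a, against 5.91, 5.95 and 6.09 in MO-Tbx5a and 5.31 and 5.43 in MO-Ct. It rose by 0.88 (SE 0.12, limma adjusted p = 0.00101) and by 0.72 on the other probe, and was kept in every fit. cmlc1 (NM_131692), a cardiac myosin light chain, rose on 3 of 3 probes (0.61, 0.77 and 0.84). It is outside the cardiac list and its counts, and was chosen after its values were seen. The first cmlc1 probe had 12.33, 12.34 and 12.43 in MO-Tbx5a+miR-19a, against 12.16, 11.9 and 12.07 in MO-Tbx5a and 11.95 and 11.57 in MO-Ct. The agreement of cmlc1 was lost without MO-Ct replicate 2. The heart marker myl7 (NM_131329) had changes of 0.63 (limma adjusted p = 0.061) and 0.60 (limma adjusted p = 0.0181), so that 1 of its 2 probes passed. None of the 4 probes of nppa (NM_198800), the natriuretic peptide of the working myocardium, was called, with changes of -0.04 to 0.25, beside 2 called rises of 0.39 and 0.47 in MO-Tbx5a.

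Repressors of the T-box family were among the lower probes of the cardiac list. tbx2b (NM_131051) acts in the atrioventricular canal, where it represses the working myocardial programme, and also in the eye and elsewhere. It had 11.45, 11.6 and 11.24 in MO-Tbx5a+miR-19a, against 12.49, 12.22 and 12.42 in MO-Tbx5a and 12.08 and 12.19 in MO-Ct. The change was -0.70 (SE 0.14, limma adjusted p = 0.00802) with 2 of 3 probes lower, and the call was lost without either MO-Ct array. Its paralog tbx2a (NM_001102384) had 10.93, 11.12 and 10.84 in MO-Tbx5a+miR-19a, against 11.84, 11.45 and 11.51 in MO-Tbx5a and 11.57 and 11.73 in MO-Ct (change -0.69, limma adjusted p = 0.0118), and its agreement was lost whichever array was left out. On these probes MO-Tbx5a+miR-19a was also lower than MO-Tbx5a by limma, with changes of -0.95 for tbx2b and -0.64 for tbx2a. Labelling kit and amount of RNA differed between these groups as well. The list of cardiac genes had 3 higher and 0 lower probes without MO-Ct replicate 2, and 5 higher and 3 lower without MO-Ct replicate 1.

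Few fin probes were called, although the list mean was slightly low. Of 86 probes to 42 genes of the fin fold and pectoral fin, 1 (1.16%) was higher and 2 (2.33%) lower, below the 5.24% and 5.95% over all probes. The list median was -0.11, and 59 probes were below 0, beside 53.6% of all probes. The mean, relative to MO-Ct, was -0.10, -0.09 and -0.10 in the MO-Tbx5a+miR-19a pools, and 0.01 and -0.01 in the MO-Ct pools. One of the lower probes was fgf24 (NM_182871), a fibroblast growth factor that acts downstream of Tbx5 in the pectoral fin field and also in tail and trunk mesoderm. It had 6.81, 7.4 and 7.4 in MO-Tbx5a+miR-19a, against 8.18, 8.12 and 7.74 in MO-Tbx5a and 7.96 and 8.01 in MO-Ct, without overlap between MO-Tbx5a+miR-19a and the other pools. Non-overlap with the MO-Ct pools alone was common, at 43.6% of all probes. The change of fgf24 was -0.78 (SE 0.19, limma adjusted p = 0.0201) and rests on 1 probe. Neither of the lower fin probes was called without MO-Tbx5a+miR-19a replicate 1 or either MO-Ct array, and 1 was without MO-Tbx5a+miR-19a replicate 3.

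Skeletal muscle had few calls. In the fast muscle list 11 of 145 probes (7.59%) were lower and 3 higher, with a median of -0.05, against 60 lower with a median of -0.31 in MO-Tbx5a. The number of lower probes was 18 without MO-Tbx5a+miR-19a replicate 3, 7 without replicate 2, 3 without replicate 1, and 3 or 2 without MO-Ct replicate 1 or replicate 2. Parvalbumins, soluble calcium buffers that speed the relaxation of fast fibres, had 9 lower and 0 higher of 21 probes to 9 genes, with a median of -0.45, beside 18 lower and a median of -1.10 in MO-Tbx5a. This grouping was made after the values were seen. pvalb3 (NM_200212) had 10.92, 11.29 and 11.65 in MO-Tbx5a+miR-19a, against 11.23, 10.89 and 10.92 in MO-Tbx5a and 11.9 and 11.97 in MO-Ct. It fell by 0.65 on the log2 scale (SE 0.19, limma adjusted p = 0.0422), with 3 of 3 probes lower, and the agreement held only without MO-Tbx5a+miR-19a replicate 3. The parvalbumin count was 2 to 5 without either MO-Ct array or MO-Tbx5a+miR-19a replicates 1 or 2, and 10 without replicate 3. The fast troponin T gene tnnt3b (NM_181653) had 14.46, 14.49 and 15.06 in MO-Tbx5a+miR-19a, against 14.93, 14.58 and 14.75 in MO-Tbx5a and 15.35 and 15.33 in MO-Ct (change -0.67, limma adjusted p = 0.0301, 2 of 4 probes), and its agreement also held only without replicate 3. In the slow muscle list 5 of 47 probes (10.6%) were higher and 1 lower, and 0, 1 and 3 were higher without MO-Ct replicate 1, MO-Ct replicate 2 and MO-Tbx5a+miR-19a replicate 3.

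Notochord and collagen genes had called probes on the higher side only, and most of their probes were not called. The notochord is the embryonic axial rod, whose sheath is rich in type II and type IX collagens and is cross-linked by lysyl oxidases. Of 64 probes to 28 notochord genes 13 (20.3%) were higher and 0 lower, with a median of 0.13 and 18 probes below 0, and of 58 probes to 23 collagen genes 10 (17.2%) were higher and 0 lower, with a median of 0.09 and 23 probes below 0. The 2 lists share genes. The notochord mean, relative to MO-Ct, was 0.20, 0.12 and 0.17 in the MO-Tbx5a+miR-19a pools, against 0.23, 0.12 and 0.21 in the MO-Tbx5a pools and 0.04 and -0.04 in the MO-Ct pools. The notochord calls were sensitive to single arrays, with 0 or 5 higher when MO-Ct replicate 2 or replicate 1 was left out, and 1 or 5 when MO-Tbx5a+miR-19a replicate 1 or replicate 3 was. The collagen calls were 2 to 4 without MO-Ct replicate 2 or MO-Tbx5a+miR-19a replicates 1 or 3.

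Within these lists, col2a1a (NM_131292), the main collagen of the notochord sheath and of cartilage, had 14.76, 14.94 and 14.82 in MO-Tbx5a+miR-19a, against 15.33, 15.03 and 15.79 in MO-Tbx5a and 14.34 and 14.01 in MO-Ct. Its change was 0.67 (SE 0.19, limma adjusted p = 0.0419), and 3 of 4 probes of col2a1a rose, with the agreement kept only without MO-Tbx5a+miR-19a replicate 2. col9a2 (NM_212579) had 14.12, 14.12 and 14.31 in MO-Tbx5a+miR-19a, against 13.93, 13.85 and 14.19 in MO-Tbx5a and 13.81 and 13.42 in MO-Ct (change 0.57, SE 0.15, limma adjusted p = 0.0308, both probes), and was lost without MO-Tbx5a+miR-19a replicates 1 or 3 or MO-Ct replicate 2. loxl5b (NM_001102574), a lysyl oxidase-like enzyme, had 9.55, 8.97 and 9.15 in MO-Tbx5a+miR-19a, against 8.21, 8.25 and 8.31 in MO-Tbx5a and 8.73 and 8.54 in MO-Ct. It rose by 0.59 (SE 0.16, limma adjusted p = 0.0331), with the MO-Tbx5a pools below MO-Ct, and was kept only without MO-Tbx5a+miR-19a replicate 2. Its relative loxl2b (NM_001080626), which is outside both lists and their counts, rose more. It had 11.72, 11.68 and 11.71 in MO-Tbx5a+miR-19a, against 11.19, 11.12 and 11.06 in MO-Tbx5a and 10.66 and 10.38 in MO-Ct. All 3 loxl2b probes were higher (change 1.18, SE 0.12, limma adjusted p = 0.000216 for this probe), and the call was lost without MO-Ct replicate 1.

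A cartilage matrix gene rose as well. ucmab (NM_212934), which encodes a secreted, vitamin K-dependent protein of cartilage and notochord, had 10.7, 10.51 and 10.47 in MO-Tbx5a+miR-19a, against 11.25, 11.02 and 11.13 in MO-Tbx5a and 9.47 and 9.59 in MO-Ct. Both groups of morphants lay above control by about 1 unit or more. The change of ucmab was 1.03 (SE 0.13, limma adjusted p = 0.000645), it was 1.51 on the other probe (limma adjusted p = 0.000104), and the gene was kept in every fit.

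Epidermal genes leaned higher in MO-Tbx5a+miR-19a and lower in MO-Tbx5a. Of 115 probes to 39 epidermal genes 18 (15.7%) were higher and 5 (4.35%) lower, with a median of 0.18, against 15 higher and 59 lower with a median of -0.43 in MO-Tbx5a. Of the 5 lower probes 4 were of the keratin gene krt91. It also had 1 of the higher probes, and its median change over its probes was -1.18. The list mean, relative to MO-Ct, was 0.24, 0.13 and 0.16 in the MO-Tbx5a+miR-19a pools, against -0.23, -0.35 and -0.52 in the MO-Tbx5a pools and -0.01 and 0.01 in the MO-Ct pools, so that the MO-Tbx5a+miR-19a pools lay above both other groups. The number of higher probes was 10 without MO-Ct replicate 2 and 11 without MO-Ct replicate 1. Keratins are intermediate filaments of the epidermis. The keratin gene krt1-19e (NM_001114342) had 13.47, 13.61 and 13.91 in MO-Tbx5a+miR-19a, against 12.58, 12.22 and 12.71 in MO-Tbx5a and 12.83 and 12.92 in MO-Ct. All 5 probes of krt1-19e rose, by 0.60 to 1.06 on the log2 scale (SE 0.17, limma adjusted p = 0.0111 for this probe), and the gene was kept in every fit.

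Other epidermal genes were called in part. krt94 (NM_001077454) had 11.67, 11.67 and 11.52 in MO-Tbx5a+miR-19a, against 11.24, 11.67 and 12.22 in MO-Tbx5a and 10.69 and 10.92 in MO-Ct (change 0.81, SE 0.22, limma adjusted p = 0.0311, 2 of 3 probes), and was kept only without MO-Tbx5a+miR-19a replicate 2. pkp3a (NM_001045280), a plakophilin of the desmosomes that join epithelial cells, had 12.79, 13.09 and 13.04 in MO-Tbx5a+miR-19a, against 12.29, 12.17 and 12.43 in MO-Tbx5a and 12.23 and 12.25 in MO-Ct. It rose by 0.73 (SE 0.13, limma adjusted p = 0.00505, 3 of 4 probes), and the agreement was lost without either MO-Ct array. The 9 probes of krt4, the 6 probes of krt5 and all probes of tp63, the transcription factor of basal epidermis, were not called. Keratin genes are close copies of one another, and their probes can share signal.

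Egg coat genes of the zp2 and zp3 type were called on the higher side only. The zp genes encode zona pellucida glycoproteins that form the coat of the fish egg, and their transcripts are made in the ovary, so that in embryos they are usually regarded as maternal. Over 16 zp2 and zp3 genes, grouped after their values were seen, 24 of 35 probes were higher and 0 lower, with a median of 0.64, against 10 higher and 3 lower with a median of 0.04 in MO-Tbx5a. With any 1 array left out, 12 to 22 probes were higher, the lowest without MO-Ct replicate 2, and with the dimmest probes of the array left out 15 of 17 were. On 1 of its 3 probes zp2.3 (NM_131828) had 9.06, 9.01 and 9.05 in MO-Tbx5a+miR-19a, against 7.74, 7.98 and 8.08 in MO-Tbx5a and 7.77 and 7.41 in MO-Ct. It rose there by 1.45 (SE 0.14, limma adjusted p = 0.000153), the largest change among its probes, and by 0.555 on its brightest probe. All 3 zp2.3 probes were higher, and the gene was kept in every fit. zp2.1 (NM_001039883) had 6.93, 6.98 and 6.63 in MO-Tbx5a+miR-19a, against 6.72, 6.68 and 7.39 in MO-Tbx5a and 5.58 and 5.48 in MO-Ct (change 1.32, SE 0.20, limma adjusted p = 0.00177), and was kept in every fit.

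zp3.2 (NM_001025186) had 7.89, 7.62 and 7.76 in MO-Tbx5a+miR-19a, against 7.14, 7.11 and 6.77 in MO-Tbx5a and 6.78 and 6.75 in MO-Ct, with a change of 0.99 (limma adjusted p = 0.00138) that was lost without MO-Ct replicate 1. zp2.2 (NM_131827), chosen after its values were seen, rose on 4 of 4 probes, by 0.58 to 1.03, and was lost without MO-Ct replicate 2. The zp2 genes lie among near copies, so their probes can read more than 1 copy. In the list of germ cell and maternal genes, which includes zp genes, 10 of 44 probes (22.7%) were higher and 1 lower, with a median of 0.00. The higher count was 4 without MO-Ct replicate 2 and 5 without MO-Ct replicate 1. Its 4 genes with agreeing higher probes were zp3, zp3.2, zp3a.1 and celf1, so that most of them were egg coat genes.

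The largest rises of genes with agreeing probes included genes of general cell functions. metap1 (NM_001025165), a methionine aminopeptidase that trims the first residue of new proteins, had 13.83, 13.67 and 13.53 in MO-Tbx5a+miR-19a, against 12.18, 12.15 and 12.09 in MO-Tbx5a and 12.61 and 12.42 in MO-Ct. It rose by 1.16 (SE 0.13, limma adjusted p = 0.000346) and by 1.36 on the other probe. cpsf6 (NM_001017993), a factor of pre-mRNA cleavage and polyadenylation, had 14.28, 14.31 and 14.14 in MO-Tbx5a+miR-19a, against 12.74, 12.84 and 13.15 in MO-Tbx5a and 13.18 and 12.9 in MO-Ct. All 5 cpsf6 probes rose, by 0.71 to 1.46 on the log2 scale (SE 0.15, limma adjusted p = 0.000623 for this probe). Both genes were kept in every fit, and in both the MO-Tbx5a pools were at or below MO-Ct.

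slc22a2 (NM_213150), an organic cation transporter, had 7.7, 7.81 and 7.73 in MO-Tbx5a+miR-19a, against 6.7, 6.55 and 7.26 in MO-Tbx5a and 6.61 and 6.37 in MO-Ct (change 1.26, SE 0.18, limma adjusted p = 0.00149). In other genes of this group the MO-Tbx5a pools lay with the MO-Tbx5a+miR-19a pools. s100a1 (NM_001089351), a calcium-binding protein, had 8.84, 9.09 and 8.91 in MO-Tbx5a+miR-19a, against 9.24, 8.86 and 9.08 in MO-Tbx5a and 7.88 and 7.85 in MO-Ct (change 1.08, SE 0.14, limma adjusted p = 0.000776). agpat9l (NM_001099450), an acyltransferase of glycerolipid synthesis, had 7.37, 7.19 and 7.64 in MO-Tbx5a+miR-19a, against 7.54, 7.51 and 7.27 in MO-Tbx5a and 6.48 and 6.14 in MO-Ct (change 1.09, SE 0.16, limma adjusted p = 0.0016). slc22a2, s100a1 and agpat9l were kept in every fit. pigp (NM_199712), of glycosylphosphatidylinositol anchor synthesis, had 9.53, 9.26 and 9.53 in MO-Tbx5a+miR-19a, against 8.15, 8.57 and 8.88 in MO-Tbx5a and 8.43 and 8.29 in MO-Ct (change 1.08, SE 0.18, limma adjusted p = 0.00369), and was lost without MO-Ct replicate 2.

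The anti-apoptotic gene faima (NM_001002583), an inhibitor of Fas signalling, showed how unequal 2 probes of a gene can be. One probe had 7.83, 8.06 and 7.81 in MO-Tbx5a+miR-19a, against 7.47, 7.67 and 7.89 in MO-Tbx5a and 4.44 and 4.43 in MO-Ct, where it was near the lowest value of the array (4.06). The other probe of faima had 7.24, 7.2 and 7.26 in MO-Tbx5a+miR-19a, against 6.87, 6.83 and 6.86 in MO-Tbx5a and 6.4 and 6.71 in MO-Ct, and rose by 0.68 (SE 0.12, limma adjusted p = 0.00521). The agreement of the 2 probes was lost without MO-Ct replicate 1.

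Among the 12 largest falls with agreeing probes, the genes outside the lens were her4.1, rasgrp4 and tlr3. rasgrp4 (NM_001044862), an exchange factor that activates Ras in blood cells, had 8.42, 8.37 and 8.42 in MO-Tbx5a+miR-19a, against 8.3, 8.12 and 8.11 in MO-Tbx5a and 9.82 and 9.79 in MO-Ct. It fell by 1.40 on the log2 scale (SE 0.12, limma adjusted p = 5.13e-05) with 2 of 3 probes lower. tlr3 (NM_001013269), a Toll-like receptor for double-stranded RNA, had 6.17, 5.9 and 5.88 in MO-Tbx5a+miR-19a, against 6.41, 6.29 and 6.84 in MO-Tbx5a and 7.14 and 7.17 in MO-Ct. It fell by 1.17 on the log2 scale (SE 0.16, limma adjusted p = 0.00125), the other probe gave -1.13 (limma adjusted p = 0.000233), and no pool of either morphant group reached the MO-Ct pools. Both genes were kept in every fit.

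**Figure D4:**
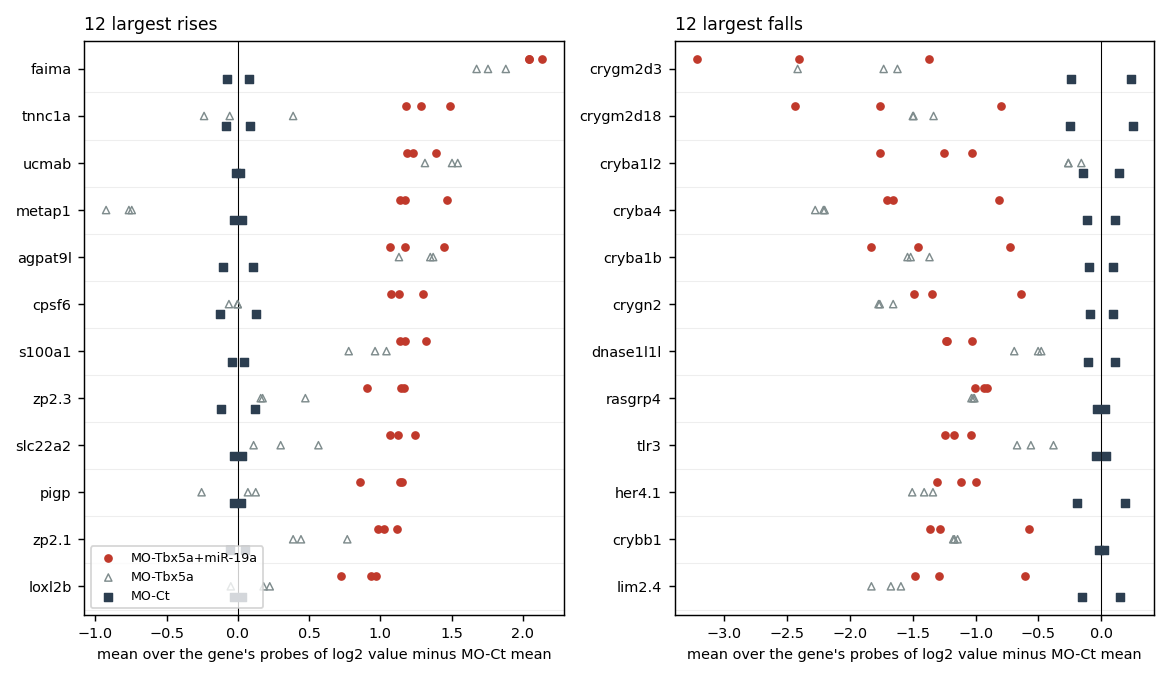
The 12 largest rises and 12 largest falls among genes with agreeing probes, by the median change over probes, with the mean log2 value over the probes of each gene on each array (MO-Tbx5a+miR-19a red circles, MO-Tbx5a grey triangles, MO-Ct dark squares). Lens genes such as crygm2d3 and cryba1l2 make up much of the lower set.

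Blood, pigment and kidney differed at few genes. Myeloid genes had 8 of 83 probes lower (9.64%) and 0 higher, with a median of -0.11, and 2 or 4 were lower without MO-Ct replicate 2 or replicate 1. runx3 (NM_131604), a Runt factor of blood formation and sensory neurons, had 7.69, 7.89 and 7.77 in MO-Tbx5a+miR-19a, against 8.57, 8.47 and 8.12 in MO-Tbx5a and 8.52 and 8.56 in MO-Ct (change -0.76, SE 0.14, limma adjusted p = 0.00667, 2 of 3 probes), lost without MO-Tbx5a+miR-19a replicates 2 or 3 or MO-Ct replicate 2. Erythroid genes had 7 of 81 probes higher (8.64%) and 1 lower, with 0 or 4 higher when MO-Ct replicate 2 or replicate 1 was left out, and 3 without MO-Tbx5a+miR-19a replicates 1 or 3. Genes of xanthophores and iridophores, the yellow and reflective pigment cells, had 6 of 36 probes lower (16.7%) and 0 higher with a median of -0.21, beside 21 lower with a median of -0.51 in MO-Tbx5a. gch2 (NM_131667), which makes the pteridine precursor of yellow pigment, had 13.32, 13.5 and 13.65 in MO-Tbx5a+miR-19a, against 13.41, 13.21 and 12.95 in MO-Tbx5a and 14.34 and 14.01 in MO-Ct (change -0.69, limma adjusted p = 0.019, 2 of 5 probes), lost without MO-Tbx5a+miR-19a replicate 1 or either MO-Ct array. That pigment count was 2 without MO-Ct replicate 2 and 3 without MO-Ct replicate 1 or MO-Tbx5a+miR-19a replicate 1. Pronephros genes had 6 of 63 probes lower and 2 higher, and endothelial genes 5 of 75 probes in each direction. Without MO-Ct replicate 2 these counts were 1 lower and 0 higher for the pronephros and 1 in each direction for the endothelium, and without MO-Ct replicate 1 neither list had a lower probe. Pronephros genes had 1 higher and 2 lower probes without MO-Tbx5a+miR-19a replicates 1 or 3, and endothelial genes 3 in each direction without replicate 1.

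Liver and yolk genes had a median at control, with single rises. Of 110 probes to 43 genes of yolk and liver 8 (7.27%) were higher and 2 lower, with a median of -0.02 and 56 probes below 0. The list mean, relative to MO-Ct, was -0.06, 0.17 and -0.04 in the MO-Tbx5a+miR-19a pools, and -0.02 and 0.02 in the MO-Ct pools. There were 4 higher and 0 lower probes without either MO-Ct array, 5 and 0 without MO-Tbx5a+miR-19a replicate 1, and 5 and 4 without replicate 2. fga (NM_001194989), the fibrinogen alpha chain, had 11.08, 11.31 and 10.99 in MO-Tbx5a+miR-19a, against 9.79, 9.96 and 10.32 in MO-Tbx5a and 10.15 and 10.19 in MO-Ct. It rose by 0.96 (SE 0.16, limma adjusted p = 0.00324) and by 0.65 on the other probe, and the agreement was lost without MO-Tbx5a+miR-19a replicate 1 or MO-Ct replicate 1. The metallothionein gene mt2 (NM_001131053), which binds zinc and copper, had 11.12, 11.04 and 11.29 in MO-Tbx5a+miR-19a, against 10.96, 11.22 and 11.23 in MO-Tbx5a and 10.45 and 10.32 in MO-Ct. All 3 mt2 probes rose (0.77, SE 0.13, limma adjusted p = 0.00408 for this probe), and the gene was kept in every fit. MO-Tbx5a stood with MO-Tbx5a+miR-19a on this probe only, since on the other probes mt2 changed by 0.92 and 0.69 in MO-Tbx5a+miR-19a, beside -0.09 and -0.21 in MO-Tbx5a.

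atp1b1b (NM_131671), a beta subunit of the sodium pump, had 11.59, 11.43 and 11.52 in MO-Tbx5a+miR-19a, against 11.51, 11.77 and 11.68 in MO-Tbx5a and 10.58 and 10.6 in MO-Ct. It rose by 0.92 (SE 0.12, limma adjusted p = 0.000981) on 2 of 4 probes and was kept in every fit, but its other probes gave 0.03 and -0.04. trpv6 (NM_001001849), the calcium channel of ionocytes, had 5.78, 5.91 and 6.09 in MO-Tbx5a+miR-19a, against 6.86 and 6.99 in MO-Ct. It fell by 1.00 on the log2 scale (SE 0.15, limma adjusted p = 0.00163) and by 0.42 on the other probe, and the agreement was lost whichever array was left out. In the list of ionocyte genes 5 of 44 probes were higher and 3 lower, and 2 higher and 1 lower without either MO-Ct array.

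Genes of steroid synthesis had 4 of 21 probes higher (19.0%) and 0 lower, with a median of 0.13. The mean over the list, relative to MO-Ct, was 0.31, 0.33 and 0.32 in the MO-Tbx5a+miR-19a pools, against 0.21, 0.28 and 0.45 in the MO-Tbx5a pools and -0.02 and 0.02 in the MO-Ct pools. The called probes belonged to 4 genes with 1 called probe each, so that no gene had agreeing probes. The largest rise was in fdx1b (NM_001100949), a mitochondrial ferredoxin that passes electrons to steroid-making cytochromes P450, which had 8.84, 9.17 and 8.7 in MO-Tbx5a+miR-19a, against 8.99, 9.06 and 9.66 in MO-Tbx5a and 6.5 and 6.71 in MO-Ct. Single probes of cyp17a1, a P450 of androgen and cortisol synthesis, and of nr5a1a and nr5a1b, orphan nuclear receptors of steroid-making tissue, rose by 0.61, 0.70 and 1.22 on the log2 scale. Another probe of each had a change of 0.26 for cyp17a1, -0.08 for nr5a1a and 0.34 for nr5a1b, none of them called. The 4 higher probes were 1 without either MO-Ct array and 2 without MO-Tbx5a+miR-19a replicate 1.

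Patterning and stress lists had small medians. Hox genes, which assign position along the body, had 6 of 115 probes lower (5.22%, below the 5.95% over all probes) and 0 higher, with a median of -0.15, and 0 to 2 were lower without MO-Ct replicates 1 or 2 or MO-Tbx5a+miR-19a replicate 1. hoxb8a (NM_131120) had 11.6, 11.85 and 11.68 in MO-Tbx5a+miR-19a, against 12.29, 12.21 and 12.02 in MO-Tbx5a and 12.33 and 12.48 in MO-Ct (change -0.69, SE 0.13, limma adjusted p = 0.00647), with 2 of 4 probes lower and another at 0.17, and the agreement was lost without MO-Tbx5a+miR-19a replicate 1 or either MO-Ct array. Genes of the unfolded protein response, by which cells adjust to misfolded protein in the endoplasmic reticulum, had 13 of 108 probes lower (12%) and 1 higher, with a median of -0.04. That count was 1 or 6 when MO-Ct replicate 2 or replicate 1 was left out, and 3 when MO-Tbx5a+miR-19a replicate 1 was.

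Several lists of cell machinery with many lower probes in MO-Tbx5a embryos had few called probes and medians within 0.1 of 0 in MO-Tbx5a+miR-19a embryos. Respiratory chain genes, which carry electrons and make ATP in mitochondria, had 4 of 160 probes higher and 4 lower with a median of -0.02 in MO-Tbx5a+miR-19a, beside 4 higher and 109 lower with a median of -0.62 in MO-Tbx5a. Their mean, relative to MO-Ct, was -0.06, -0.04 and 0.11 in the MO-Tbx5a+miR-19a pools, and -0.71, -0.73 and -0.80 in the MO-Tbx5a pools. Proteasome genes, which degrade tagged proteins, had 5 of 90 probes higher and 0 lower with a median of -0.01, beside 4 higher and 61 lower with a median of -0.60 in MO-Tbx5a. The chaperonin genes, which fold actin and tubulin, had 0 of 30 probes called by limma, beside 2 higher and 17 lower with a median of -0.54 in MO-Tbx5a. Genes commonly used as references had 0 of 55 probes called in MO-Tbx5a+miR-19a, beside 3 higher and 27 lower in MO-Tbx5a. Cytoplasmic ribosomal genes differed from these lists. They had 1 of 171 probes called in each direction with a median of -0.11 in MO-Tbx5a+miR-19a (124 probes below 0), beside 10 higher and 47 lower with a median of -0.08 in MO-Tbx5a. All these comparisons share the MO-Ct arrays.

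Probes of one transcript could also point in opposite directions. acta1a (NM_001017750), a skeletal alpha-actin, is counted as lower from 2 of its 3 probes. One of these had 14.82, 14.69 and 14.85 in MO-Tbx5a+miR-19a, against 15.72, 15.71 and 15.7 in MO-Tbx5a and 15.96 and 15.71 in MO-Ct (change -1.05, SE 0.12, limma adjusted p = 0.000462). Its brightest probe, in contrast, had 16.85, 16.38 and 16.67 in MO-Tbx5a+miR-19a, against 14.8, 14.51 and 14.35 in MO-Tbx5a and 16.47 and 16.28 in MO-Ct (change 0.26, limma adjusted p = 0.342). The direction of acta1a thus depended on the probe, and close actin copies may share these probes.

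The keratin gene krt91 (NM_001003445) of the epidermal list, chosen after its values were seen, was among the 28 symbols called both ways. One probe had 13.02, 13.35 and 13.61 in MO-Tbx5a+miR-19a, against 13.93, 13.68 and 13.42 in MO-Tbx5a and 14.69 and 14.53 in MO-Ct, and krt91 fell there by 1.28 on the log2 scale (limma adjusted p = 0.00135). Another had 14.84, 14.45 and 14.62 in MO-Tbx5a+miR-19a, against 12.44, 12.03 and 12.41 in MO-Tbx5a and 13.35 and 13.2 in MO-Ct, and rose by 1.36 (limma adjusted p = 0.000455). The other 3 probes of krt91 gave -1.18, -1.37 and -1.05. Labelling kit and group cannot be told apart in such disagreements either.

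**Figure D5:**
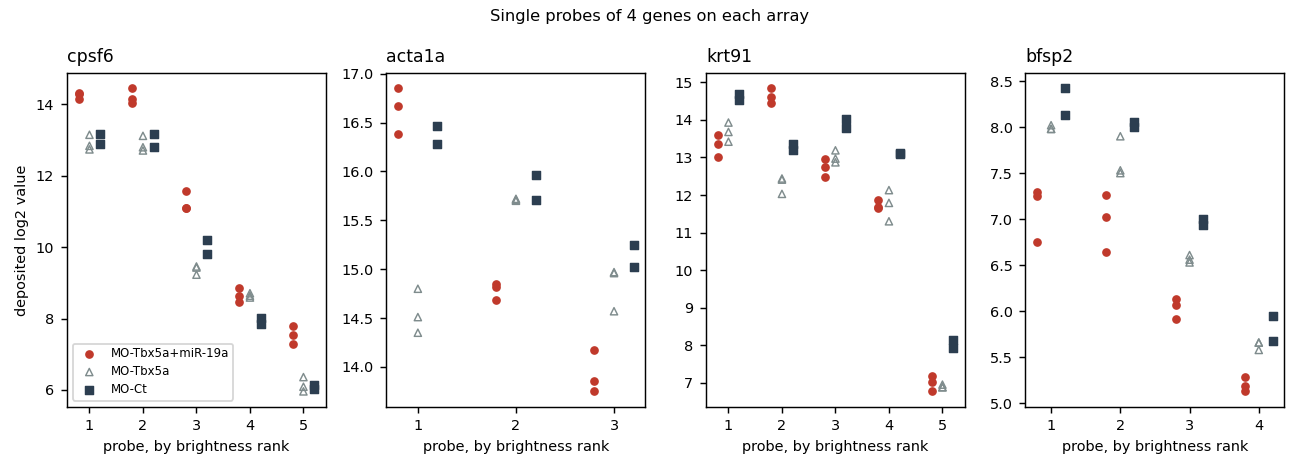
Log2 value of every probe of 4 genes on each array (MO-Tbx5a+miR-19a red circles, MO-Tbx5a grey triangles, MO-Ct dark squares). All probes of cpsf6 are higher and all of bfsp2 lower on the MO-Tbx5a+miR-19a arrays than on the MO-Ct arrays, while single probes of acta1a and krt91 go against the others.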

How the data were processed

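RNA of whole embryos was hybridised to 1-colour Agilent zebrafish arrays. The authors deposited log2 values, made from median signals by normexp background correction (offset 16) and cyclic loess per their methods, and these were used as they stand. The deposited intensity values and flags of 3 scans (other columns, per the file headers) served to check those scans and their background. Arrays have no read depth, and their number limits precision.

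Probes were named through RefSeq accessions matched without versions to RefSeq genes of GRCz12tu, giving 24716 of 39162 probes a symbol. lmFit and eBayes (limma 3.58.1, R 4.3.3) were run on all 8 arrays with 1 mean per group and 5 residual degrees of freedom per probe, and checked on simulated data. All limma p-values are two-sided and adjusted over all probes. Named genes were those with agreeing, non-overlapping probes and no clone name, namely the 12 largest rises and falls by the median over probes and up to 4 per list and direction (86 in all), plus defining list members. The groups, members and lists were chosen with earlier results of these data known. Alternatives were other normalisations, thresholds, variance models, samples and probe rules, and leaving out each array. Lists carry no test.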

Additional observations from a re-analysis of the deposited data

Results flagged for a closer look

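The scans of the 3 MO-Tbx5a+miR-19a samples held 4441 probes with no value in the deposited matrix. Of these, 172 (3.87%) were well above background on all 3 scans, against 97.2% of the probes in the matrix. No scans of MO-Ct arrays were analysed here, so these probes entered no comparison.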

How the results depend on the processing

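The number of called probes (4384, of which 2052 higher and 2332 lower) stayed within 1.5 times under quantile normalisation (4299), cyclic loess (4305, of which 2362 higher and 1943 lower), scaling to the 75th percentile (4338, of which 2333 higher and 2005 lower), the 5 arrays alone (4428), and the trend and robust options (4384). The number of genes with agreeing probes (343, of which 162 higher and 181 lower) was 326, 333 and 333 under these normalisations, 299 when every probe of the gene had to share the direction and 340 when counted by accession. Testing against the 1.3-fold threshold with treat left 352 probes (207 higher, 145 lower) and 21 genes (12 higher, 9 lower). A fold change above 2 left 513 probes (303 higher, 210 lower) and 28 genes (10 higher, 18 lower). With the replicate number as a block there were 2162 probes (1062 higher, 1100 lower) and 161 genes (90 higher, 71 lower). Whether the same numbers pair the samples is not known. Deviations of same-numbered MO-Tbx5a+miR-19a and MO-Ct arrays correlated at -0.077 and -0.222. The deviations of the 2 MO-Ct arrays mirror each other, so these correlations cannot decide it. Leaving out each array in turn gave 1042 to 4147 probes (609 to 1818 higher, 433 to 2329 lower) and 66 to 322 genes (42 to 149 higher, 24 to 173 lower), with the lowest counts without an MO-Ct array. Removing arrays leaves fewer to estimate the spread, and MO-Ct then rests on 1. The number of lists with a median within 0.1 of 0 (47) was 40 to 48. Of the 86 named genes 19 kept agreeing probes without any single array. The one reversal was acta1a, at 0.26 on its brightest probe. The cause of the other losses was not tested.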
